A study of Homo sapiens with 36 samples.

Results

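The miRNAs described here are 6 mature 5p products of the hairpin cluster in CLCN5 on chromosome X, namely hsa-miR-532-5p, hsa-miR-188-5p, hsa-miR-500a-5p, hsa-miR-362-5p, hsa-miR-660-5p and hsa-miR-502-5p. They were chosen by name, and all 6 were found in each of the 7 deposited tables, which together list 509 miRNA names. A deposited table gives, for each miRNA, the mean normalised read count over the 3 small RNA libraries of a line with extra chromosomes and the 3 libraries of its control. Each level below is therefore the authors' mean of a line and its control together, and it has no spread between libraries. How far a member moved between a line and its own control is not analysed here. The question addressed is how far the members kept their proportions to each other from table to table.

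HCT116 cells come from a human colorectal cancer and are near-diploid, while RPE1 cells are human retinal pigment epithelium made immortal with hTERT. An asterisk in a name marks cells that stably express the histone H2B tagged with GFP, and c marks a clone grown from a single cell. The 36 libraries form 12 groups of 3. HCT116 5/4 carries 4 copies of chromosome 5 and shares its table with HCT116. HCT116 18/3 c2, HCT116* 3/3 c11 and HCT116* 8/3 c7 carry 3 copies of chromosome 18, 3 and 8, and their 3 tables share the same HCT116* control libraries. HCT116 18/3 c2 bears no H2B-GFP by its labels, unlike its control. RPE1 5/3 12/3 carries 3 copies each of chromosomes 5 and 12 and was set against RPE1. RPE1* 7/3 carries 3 copies of chromosome 7 and, per the study's methods, gained further chromosomes spontaneously, and RPE1* 21/3 carries 3 copies of chromosome 21. Their controls were the RPE1* libraries numbered 11 to 13 and 1 to 3. The labels give a modal chromosome number of 45 for the HCT116 and HCT116* controls and of 46 for the RPE1 and RPE1* controls. No label names a gain of chromosome X, where the members are encoded. The number of X copies in either cell line was not examined. A mean of a line and its control can hide a change between them.

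A miRNA is cut from a hairpin in a longer primary transcript by Drosha and Dicer, and 1 arm is then loaded into an Argonaute protein, where bases 2 to 8, the seed, lead the pairing with target mRNAs. Hairpins in an intron are transcribed with their host gene or from a promoter of their own, so that members of a cluster can share a primary transcript. What reaches the mature pool also depends on how each hairpin is cut and how long each product lasts. CLCN5 encodes ClC-5, a chloride/proton exchanger of endosomes that is mutated in Dent disease.

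GENCODE 44 places CLCN5 on GRCh37, the genome used for mapping, at chrX:49687206-49863892 on the plus strand. Of its 9 annotated transcripts, 3 span the cluster, and none has an exon at any of the hairpins. The hairpins lie in a single intron, chrX:49689925-49806924, and cover 11538 bases from first to last. In order along the plus strand they are MIR532 (chrX:49767754-49767844), MIR188 (chrX:49768109-49768194), MIR500A (chrX:49773039-49773122), MIR362 (chrX:49773572-49773636), MIR501 (chrX:49774330-49774413), MIR500B (chrX:49775279-49775357), MIR660 (chrX:49777849-49777945) and MIR502 (chrX:49779206-49779291). MIR532 and MIR188 are 264 bases apart, MIR500A and MIR362 are 449 bases apart, and MIR660 and MIR502 are 1260 bases apart.

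The mature sequences show how alike the members are, which bears on whether reads can be told apart, and 5 of the 6 were matched to a RefSeq mature sequence (GRCh38.p14). They are written 5′ to 3′ with the seed in capitals, together with the neighbours hsa-miR-501-5p and hsa-miR-500b-5p.
hsa-miR-532-5p: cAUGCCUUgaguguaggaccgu
hsa-miR-188-5p: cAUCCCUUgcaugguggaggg
hsa-miR-500a-5p: uAAUCCUUgcuaccugggugaga
hsa-miR-362-5p: aAUCCUUGgaaccuaggugugagu
hsa-miR-502-5p: aUCCUUGCuaucugggugcua
hsa-miR-501-5p: aAUCCUUUgucccugggugaga
hsa-miR-500b-5p: aAUCCUUGcuaccugggu

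All 5 members with a sequence share a run of 5 bases, CCUUG, and no seed was the same in any pair of these 5. The seed of hsa-miR-660-5p was not compared. The neighbour hsa-miR-500b-5p has the same seed as hsa-miR-362-5p. The seeds of hsa-miR-500a-5p, hsa-miR-362-5p and hsa-miR-502-5p are shifted copies of a common stretch. The 18 bases of hsa-miR-500b-5p lie whole inside hsa-miR-500a-5p, so reads of these miRNAs could be shared, and the level of hsa-miR-500a-5p is uncertain to that extent. A miRNA listed as hsa-miR-500b, with no arm in its name, had means of 1.14 to 16.6 in 4 tables.

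Members of the cluster differed in level by far more than any member differed between tables. hsa-miR-532-5p was the highest in all 7 tables and took 83.4% to 93.2% of the members' summed mean, although its hairpin lies next to that of hsa-miR-188-5p, a member of low level. The authors' mean of hsa-miR-532-5p was 19573 in the table of HCT116* 8/3 c7, 19071 in HCT116* 3/3 c11, 16219 in HCT116 18/3 c2 and 11102 in HCT116 5/4. It was 2130 in RPE1 5/3 12/3, 5587 in RPE1* 7/3 and 2969 in RPE1* 21/3. By this mean it ranked between place 20 and 24 in the HCT116 tables and between place 38 and 51 in the RPE1 tables.

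The second level was held by hsa-miR-660-5p and hsa-miR-362-5p. The mean of hsa-miR-660-5p was 825 in HCT116* 8/3 c7, 793 in HCT116* 3/3 c11, 852 in HCT116 18/3 c2 and 1330 in HCT116 5/4, against 227 in RPE1 5/3 12/3, 201 in RPE1* 7/3 and 330 in RPE1* 21/3. For hsa-miR-362-5p the means were 736, 828, 836 and 759 in the same order of HCT116 tables and 143, 164 and 169 in the RPE1 tables. The order of the pair was not fixed, since hsa-miR-362-5p had the higher mean in HCT116* 3/3 c11 and hsa-miR-660-5p in the other 6 tables.

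The lowest level was that of hsa-miR-500a-5p, hsa-miR-188-5p and hsa-miR-502-5p. In the HCT116 tables hsa-miR-500a-5p had means of 47.9 (8/3 c7), 58.4 (3/3 c11), 51.2 (18/3 c2) and 39.9 (5/4), and in the RPE1 tables of 13.7 (5/3 12/3), 21.5 (7/3) and 10.1 (21/3). In the same order those of hsa-miR-188-5p were 47.0, 59.0, 43.7 and 54.2, and then 10.1, 12.2 and 8.68. With 18.0, 22.9, 19.4 and 21.9, and then 10.5, 6.58 and 7.60, hsa-miR-502-5p was the lowest member in 6 tables, with hsa-miR-188-5p lower in RPE1 5/3 12/3. At means this low counting error is large, and the tables do not give the depth that would size it. From the lowest to the highest member the 5p products spanned 210-fold in RPE1 5/3 12/3 and 1090-fold in HCT116* 8/3 c7. No 3p arm of these hairpins was listed under the name searched, so these are not levels of the whole output of a hairpin.

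**Figure D1:**
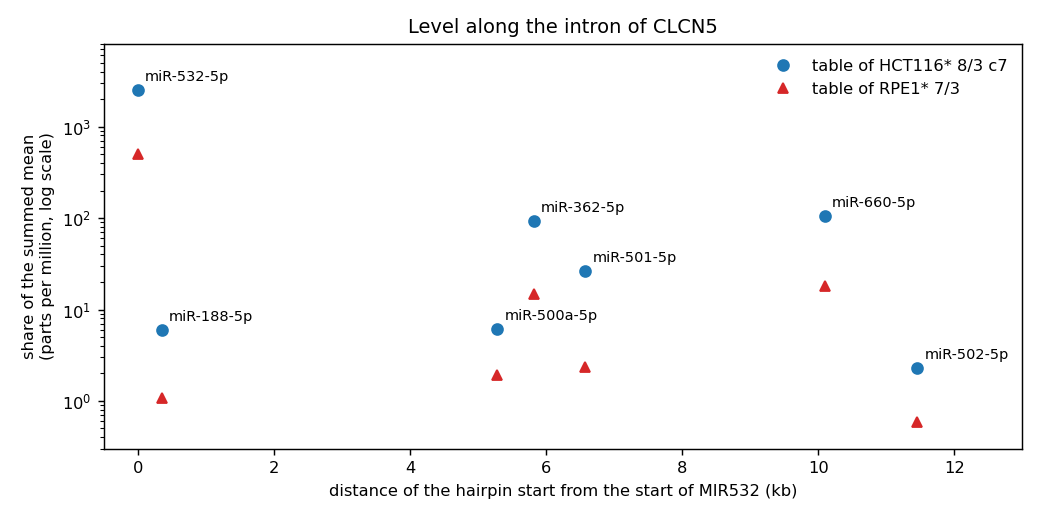
Share of the summed mean of a table (ppm, log scale) against the distance of each hairpin from the start of MIR532 (kb), for the tables of HCT116* 8/3 c7 (circles) and RPE1* 7/3 (triangles), with hsa-miR-501-5p as a neighbour that is not a member. The high hsa-miR-532-5p and the low hsa-miR-188-5p come from adjacent hairpins. Only 5p arms are shown.

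To set levels side by side across tables, which the authors normalised separately, each mean was divided by the sum of all means in its table and given in parts per 1000000 (ppm). The summed means ran from 5556870 to 11221232. The members together made up 0.227% to 0.271% of the HCT116 tables and 0.0278% to 0.0534% of the RPE1 tables. The share of hsa-miR-532-5p ran from 1998 to 2497 ppm in the HCT116 tables and from 234 to 498 in the RPE1 tables. That of hsa-miR-660-5p ran from 88.7 to 239 and from 17.9 to 40.9, and that of hsa-miR-362-5p from 92.6 to 137 and from 14.6 to 21.0. For the low members the ranges were 5.49 to 9.75 against 1.08 to 1.11 (hsa-miR-188-5p), 6.11 to 7.18 against 1.25 to 1.92 (hsa-miR-500a-5p) and 2.29 to 3.94 against 0.586 to 1.15 (hsa-miR-502-5p). Every member was thus higher in each of the 4 HCT116 tables than in each of the 3 RPE1 tables. Among 173 miRNAs with a mean of at least 10 in every table, 46.8% were higher in this way, so a separation in this direction was common.

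Averaged over all 7 tables, the size of the difference was alike for 3 members. On the log2 scale the mean share in HCT116 tables exceeded that in RPE1 tables by 2.62 for hsa-miR-532-5p, 2.64 for hsa-miR-188-5p and 2.65 for hsa-miR-362-5p. The difference was 2.24 for hsa-miR-660-5p, 2.09 for hsa-miR-500a-5p and 1.67 for hsa-miR-502-5p. The 3 alike members were less alike within the 2 sets of tables described below. In the same order their differences were 2.77, 3.16 and 2.91 within the set of 3 tables. Within the other 4 they were 2.15, 2.47 and 2.73. Over all 7 tables the median of the members was 2.43, beside 0.89 over the 173 miRNAs. This shift of 0.89 depends on how shares are scaled and was -0.18 when tables were scaled by the median of ratios. Relative to it the members differed by 0.78 (hsa-miR-502-5p) to 1.76 (hsa-miR-362-5p). Under the median of ratios the shares of hsa-miR-502-5p overlapped between the cell lines and the other 5 members stayed apart. Tables that pool lines and share controls are not replicates of a cell line, so no test was made.

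**Figure D2:**
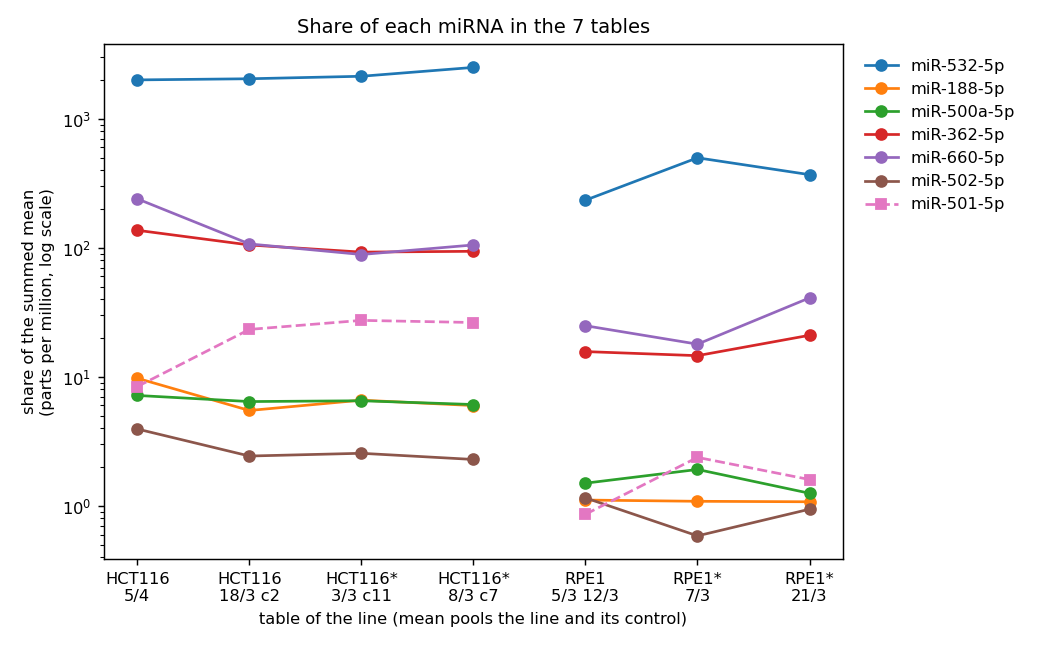
Share of the summed mean (ppm, log scale) of each member and of hsa-miR-501-5p (squares, dashed) in the 7 tables, HCT116 tables on the left and RPE1 tables on the right. Each point is a single pooled mean without an error, the lines only join points of the same miRNA, and all members lie higher on the left.

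How far members moved together was measured by the ratio of 2 miRNAs within a table, which does not depend on the scaling. The standard deviation (SD) of its log2 value over the 7 tables is called the spread here, and a spread of 0 would mean fixed proportions. Over the 15 pairs of members the median spread was 0.48, from 0.23 to 0.85. Over the 14878 pairs of the 173 miRNAs it was 1.20, with quartiles of 0.80 and 1.82. All 15 pairs of members lay below that median and 14 lay below the lower quartile. Only 4 members are among the 173, because hsa-miR-188-5p and hsa-miR-502-5p fell under a mean of 10 in RPE1 tables.

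The steadiest pair was hsa-miR-188-5p with hsa-miR-362-5p, whose hairpins are 5377 bases apart. The mean of hsa-miR-362-5p was 15.7 times that of hsa-miR-188-5p in HCT116* 8/3 c7, 14.0 times in HCT116* 3/3 c11, 19.2 times in HCT116 18/3 c2 and 14.0 times in HCT116 5/4. It was 14.1 times in RPE1 5/3 12/3, 13.4 times in RPE1* 7/3 and 19.5 times in RPE1* 21/3, and the log2 ratio over all tables stayed within 3.75 and 4.28. The loosest pair, with a spread of 0.85, joined the first and the last hairpin, hsa-miR-532-5p and hsa-miR-502-5p. There the ratio was 1090 in HCT116* 8/3 c7, 833 in HCT116* 3/3 c11, 837 in HCT116 18/3 c2, 507 in HCT116 5/4, 202 in RPE1 5/3 12/3, 849 in RPE1* 7/3 and 391 in RPE1* 21/3. The spread was 0.46 for hsa-miR-532-5p with hsa-miR-188-5p, 0.46 for hsa-miR-500a-5p with hsa-miR-362-5p and 0.48 for hsa-miR-660-5p with hsa-miR-502-5p, the 3 closest pairs. The 4 pairs farthest apart, which include the 2 loosest, had spreads of 0.48 (hsa-miR-188-5p with hsa-miR-660-5p), 0.59 (hsa-miR-188-5p with hsa-miR-502-5p), 0.76 (hsa-miR-532-5p with hsa-miR-660-5p) and 0.85.

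Ratios between members rarely parted the cell lines. For 2 of 15 pairs the ratio did not overlap between HCT116 and RPE1 tables, beside 53.8% of all pairs. Both involved hsa-miR-502-5p, the member of lowest mean in 6 tables. The mean of hsa-miR-362-5p was 34.6 to 43.2 times that of hsa-miR-502-5p in HCT116 tables and 13.6 to 24.9 times in RPE1 tables. For hsa-miR-188-5p the ratio was 2.25 to 2.62 and 0.962 to 1.85.

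Within a cell line the median spread of members was again below that of all pairs, but single pairs were not. Over the 4 HCT116 tables the median spread was 0.33 for pairs of members and 0.57 for all pairs, and over the 3 RPE1 tables it was 0.57 and 0.74. Of 15 pairs of members, 4 lay above 0.74 in the RPE1 tables, up to 1.04 for hsa-miR-532-5p with hsa-miR-502-5p, and in the HCT116 tables the highest spread was 0.72, for hsa-miR-532-5p with hsa-miR-660-5p. The 3 HCT116 tables on shared controls hold the same 3 control libraries among their 6, which lowers any spread among them. Set against the mean log2 share of the other 5, each member had a spread of 0.25 (hsa-miR-362-5p and hsa-miR-188-5p) to 0.54 (hsa-miR-502-5p).

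Over the 7 tables hsa-miR-501-5p, from a hairpin between those of hsa-miR-362-5p and hsa-miR-660-5p, did not keep its proportions to the members to the same degree. Within a set of 3 tables described below, its spreads were close to the range of the members. It was 1 of 10 other mature miRNAs of the intron looked for by name, and the only one listed under the name searched, beside hsa-miR-500b without an arm. The names searched included the 3p arm of every hairpin, and no 3p arm was listed under them. The mean of hsa-miR-501-5p was 207 in HCT116* 8/3 c7, 245 in HCT116* 3/3 c11, 185 in HCT116 18/3 c2 and 46.8 in HCT116 5/4. The RPE1 tables gave 7.85 (5/3 12/3), 26.7 (7/3) and 12.9 (21/3). The spread of its ratio to a member ran from 0.79 with hsa-miR-532-5p to 1.53 with hsa-miR-502-5p, with a median of 1.11 over the 6 members, beside 0.48 among the members. Its share was higher in all HCT116 tables than in all RPE1 tables, as for the members. hsa-miR-501-5p shares 11 bases in a row with hsa-miR-500a-5p.

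**Figure D3:**
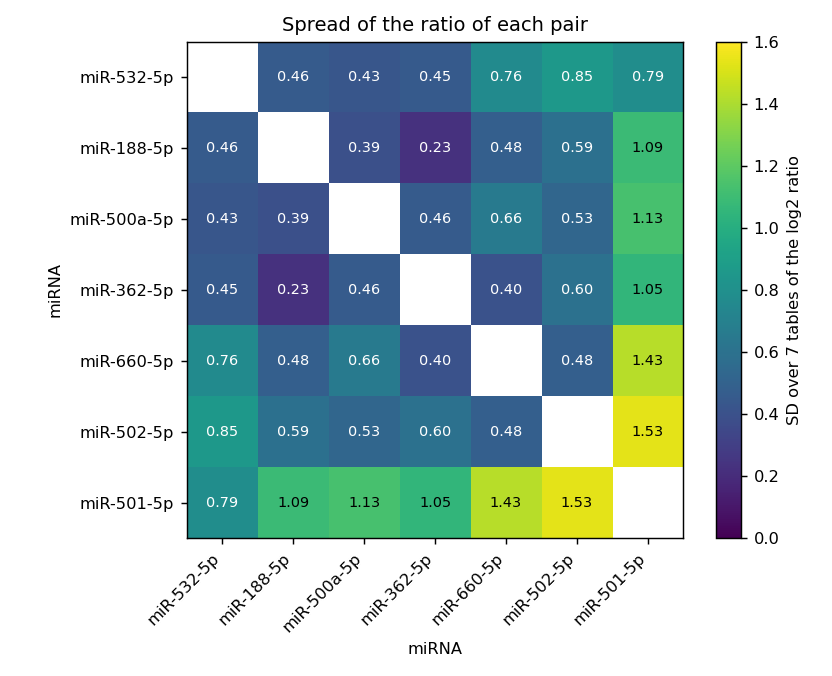
Spread of each pair, the SD over the 7 tables of the log2 ratio of the authors' means, for the 6 members in the order of their hairpins and for hsa-miR-501-5p in the last row and column. Pairs of members run from 0.23 to 0.85, and pairs with hsa-miR-501-5p from 0.79 to 1.53.

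For some pairs of members the ratio did not overlap between 2 sets of tables that differ in a feature of the processing, as it also did not for 27.1% of all pairs. In testing RPE1* 21/3, HCT116 5/4 and RPE1 5/3 12/3 the study's methods made the replicate number a term of the model because of sequencing batches, and the remaining 4 lines were tested without it. Such a term enters the test and not the mean. The mean of hsa-miR-532-5p was 9.01 times that of hsa-miR-660-5p in RPE1* 21/3, 8.35 times in HCT116 5/4 and 9.39 times in RPE1 5/3 12/3. It was 23.7 times in HCT116* 8/3 c7, 24.0 times in HCT116* 3/3 c11, 19.0 times in HCT116 18/3 c2 and 27.8 times in RPE1* 7/3. Both sets of tables hold both cell lines, and the ratio did not overlap between the sets. Within the first set its spread was 0.09 and within the second 0.23, against 0.76 over all tables.

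In all, 6 of 15 pairs of members (40.0%) did not overlap between the 2 sets, beside 27.1% of all pairs. They were hsa-miR-532-5p with hsa-miR-362-5p, hsa-miR-660-5p and hsa-miR-502-5p, hsa-miR-660-5p with hsa-miR-188-5p and hsa-miR-362-5p, and hsa-miR-500a-5p with hsa-miR-502-5p. hsa-miR-501-5p separated from 5 of the 6 members, in the opposite direction to hsa-miR-660-5p. The mean of hsa-miR-660-5p was 25.5, 28.4 and 28.9 times that of hsa-miR-501-5p in the tables of RPE1* 21/3, HCT116 5/4 and RPE1 5/3 12/3. The ratio was 3.99, 3.24 and 4.59 in the tables of HCT116* 8/3 c7, HCT116* 3/3 c11 and HCT116 18/3 c2, and 7.53 in RPE1* 7/3. Within the 3 tables of the first set the median spread was 0.45 for pairs of members and 0.96 for all pairs, and within the other 4 it was 0.23 and 0.82. Pairs of hsa-miR-501-5p with a member had spreads of 0.10 to 0.80 within the first set, beside 0.09 to 0.76 for pairs of members. Within the other 4 tables they had spreads of 0.39 to 0.86, beside 0.16 to 0.51. The sets were compared after the ratios were seen, and the 6 pairs share members, so they are not independent. What else sets these tables apart cannot be told apart from the lines themselves, and the part of sequencing batches was not tested.

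**Figure D4:**
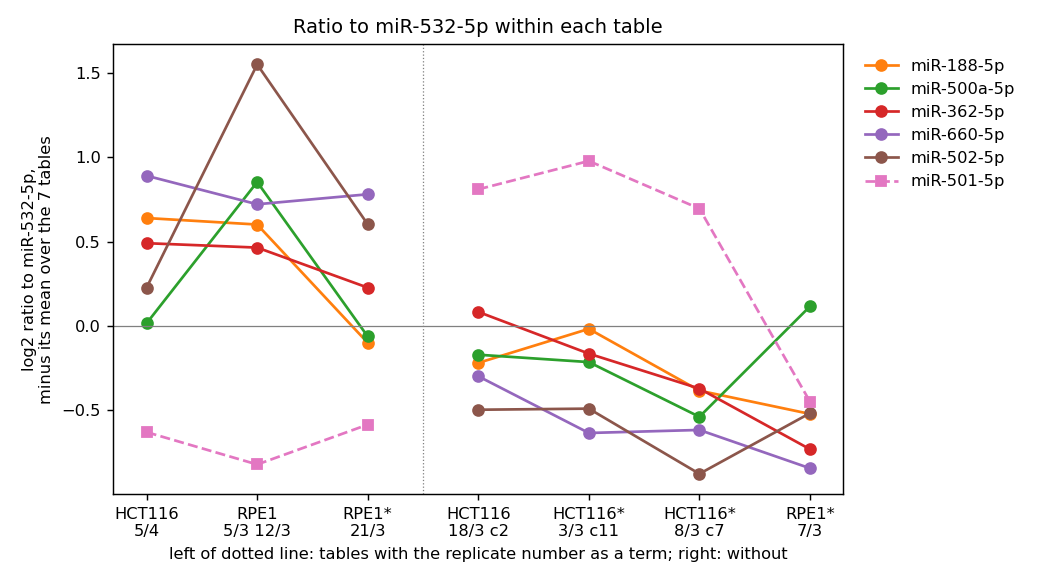
Log2 ratio of each miRNA to hsa-miR-532-5p within a table, minus its mean over the 7 tables, with the 3 tables whose comparison had the replicate number as a term on the left of the dotted line and the other 4 on the right. hsa-miR-660-5p lies above 0 in the first set and below 0 in the second, and hsa-miR-501-5p (squares, dashed) lies below 0 in the first set and in RPE1* 7/3.

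Within each set all 6 members were higher in every HCT116 table. This follows from their separation over all 7 tables and adds nothing to it. Of the 173 miRNAs, 72.3% were higher in this way in the set with the replicate term and 75.1% in the other, so that this was the common outcome. Comparing HCT116 5/4 with RPE1* 21/3 and RPE1 5/3 12/3, the shares of the members were 3.78 times (hsa-miR-502-5p) to 8.92 times (hsa-miR-188-5p) higher. Comparing the 3 HCT116 tables on HCT116* controls with RPE1* 7/3, they were 3.31 times (hsa-miR-500a-5p) to 6.65 times (hsa-miR-362-5p) higher.

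Other miRNA clusters were set beside these pairs. For hsa-miR-183-5p, hsa-miR-96-5p and hsa-miR-182-5p the 3 pairs had spreads of 0.35 to 0.90. hsa-miR-221-5p with hsa-miR-222-5p had a spread of 0.65, and hsa-miR-224-5p with hsa-miR-452-5p had one of 0.53. Whether these differ from the members was not tested.

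The miRNAs that kept the steadiest proportion to the cluster, whatever their level, were found by the spread of their ratio to the geometric mean of the 6 members over the 7 tables. They were hsa-miR-148b-5p at 0.30, hsa-miR-499a-5p at 0.31, hsa-miR-32-5p at 0.33, hsa-miR-641 at 0.33 and hsa-miR-301a-5p at 0.34. Against the other 5 members, hsa-miR-362-5p and hsa-miR-188-5p were steadier, at 0.25. Less steady were hsa-miR-500a-5p (0.36), hsa-miR-660-5p (0.47), hsa-miR-532-5p (0.53) and hsa-miR-502-5p (0.54). A steady proportion was thus not particular to members of the cluster, although these miRNAs were picked for it from the background.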

How the data were processed

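Total RNA with small RNAs was made by the authors from 36 cultures and sequenced on a HiSeq. Reads were trimmed where needed, cleared of adapters with cutadapt, mapped to hg19 and counted over miRBase with mirdeep2. The deposited signal of a miRNA is the authors' mean of counts divided by DESeq2 size factors over the 6 libraries of a table. The other deposited columns hold the authors' own comparison of line and control (log2 fold change, its standard error, test statistic and p-values) and were not used.

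Shares, ratios and spreads were computed from the means with Python 3.11.15, numpy 2.4.6 and pandas 2.3.3, and figures with matplotlib 3.10.9. The functions were tested on simulated data. A mean of at least 10 in each of the 7 tables was required for the background of 173 miRNAs. No test between groups was made, since a pooled mean has no replicates, and the tables give no read total of a library. Dixon's criterion was applied to the 4 HCT116 tables for 7 miRNAs. Members and lists were chosen with earlier results of these data known. The miRNAs named are the 6 members, 10 other mature miRNAs of the intron, 3 other clusters and the 5 most alike, plus hsa-miR-500b, which was named after its values were seen. Positions come from GENCODE 44 on GRCh37 and sequences from RefSeq on GRCh38.p14, whose coordinates were not used.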

Additional observations from a re-analysis of the deposited data

Results flagged for a closer look

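Among the 4 HCT116 tables, the share of hsa-miR-660-5p in the table of HCT116 5/4 stood apart as the highest, at 239 ppm. The gap to the next table was 0.878 of the whole range, above Dixon's critical value for 4 values. The share of hsa-miR-502-5p was also highest in this table and stood apart, at 0.839. Of 7 miRNAs examined in this way, 2 passed. HCT116 5/4 was also the table set apart, with a gap under the critical value, for hsa-miR-501-5p (0.785), whose share was lowest there. The same held for hsa-miR-188-5p (0.739), hsa-miR-362-5p (0.715) and hsa-miR-500a-5p (0.605), whose shares were highest there. For hsa-miR-532-5p it was HCT116* 8/3 c7 (0.731). Chance flags about 1 in 20 groups of independent values, a rate that does not apply here, since the other 3 tables share their control libraries. HCT116 5/4 is also the only HCT116 line that was tested with the replicate term. The part of shared controls, or of that set of tables, in the 2 values that passed was not tested.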

How the results depend on the processing

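The median spread of pairs of members was 0.44 to 0.52 when each table was left out in turn, and that of all pairs was 1.14 to 1.25. As a range over tables in place of an SD they were 1.39 and 3.15. Within the 4 tables without the replicate term the median of the members was 0.23. Leaving out a table cannot undo a separation that holds over all 7 tables, so that setting could not change the count of 6 members higher in HCT116 tables. Under median-of-ratios scaling 5 members were higher. The share of all miRNAs higher in HCT116 tables was 46.8% and moved to 30.6% when the 10 most abundant miRNAs were left out of the sum, 25.4% under median-of-ratios scaling, and 72.3% and 75.1% within the 3 and the 4 tables, where fewer tables are compared; it was 47.4% to 54.3% with a table left out. On the log2 scale the summed share of the members exceeded that of RPE1 tables by 2.59, by 1.87 without the 10 most abundant, by 1.53 under median-of-ratios scaling, by 2.18 within the 4 tables and by 2.33 to 2.80 with a table left out. Of 78 values over 17 settings, 10 were marked as moved from the main value. Spreads, counts and percentages cannot change sign, so only the difference in summed share could have reversed, and 0 of its values did. No paired analysis was possible because the tables hold no values of single libraries and the result comes from no test. Since the means are pooled, no error can be given for a level.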
